A study of Mus musculus with 9 samples.

Results

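Oxidative phosphorylation is carried out by 5 protein complexes of the inner mitochondrial membrane. Complexes I to IV pass electrons from NADH or succinate to oxygen and, except for complex II, pump protons, and complex V (ATP synthase) uses the proton gradient to make ATP. Most subunits are encoded in the nucleus and translated in the cytosol, while a small core set is encoded by mitochondrial DNA. UPF1 is an RNA helicase required for nonsense-mediated mRNA decay, a pathway in which UPF1 becomes phosphorylated (p-UPF1) on the RNAs it acts on. The nuclear-encoded genes were taken as all table entries whose NCBI Gene ID maps to a mouse symbol beginning with Nduf, Uqcr, Cox4 to Cox8 or Atp5, together with Sdha, Sdhb, Sdhc and Sdhd. This set was chosen with earlier results of these data known. The rule gave 100 of the 27179 gene IDs in the table, by symbol and not by any measured value. They were 36 subunits of complex I, 8 complex I assembly factors, 4 subunits of complex II, 8 of complex III, 20 subunits or relatives of complex IV, 17 of complex V and 7 copies or pseudogenes.

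RNA immunoprecipitation and sequencing (RIP-seq) was performed on splenic B cells of wild type mice, isolated as CD43- cells and stimulated for 72 h. Per the labels, the culture held CD40L at 5 µg/mL, anti-IgM at 10 µg/mL and IL-4 at 20 ng/mL, whereas the methods of the study name an antibody to CD40 in place of CD40L. RNA of the lysate (input), RNA recovered with an antibody to p-UPF1 and RNA recovered with nonimmune rabbit IgG were sequenced, with 3 libraries in each group, and no genetic change in any of them. The methods give a single adult age range for all mice of the study. The labels do not say whether the 3 libraries of a group came from separate animals or cultures, so p-values measure the spread between these libraries. Totals ran from 17372510 to 24945286 counts per library. Summed over 5 B cell markers, input held 3041 to 3061 CPM (counts divided by the TMM-scaled library total, on the usual CPM scale), whereas 5 T cell markers together stayed at or below 0.917 CPM and 4 macrophage and monocyte markers together reached 153 CPM, of which a single marker gave up to 138 CPM. The IgG library with the letter A stood furthest from its group, with a chi-square per degree of freedom of 9.94 and 9.89 against the other IgG libraries and 4.64 between those other libraries.

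Short transcripts were among those lowest with p-UPF1, and 2 of their open reading frames are shown to give a sense of how little coding sequence such RNAs carry. Atp5e, the epsilon subunit of the ATP synthase catalytic head, has 52 codons before a TAG stop in 159 bases, spliced from exons within chr2:174461075-174464101 on the minus strand. Atp5md, a small membrane subunit of ATP synthase, has 58 codons before a TAA stop in 177 bases, spliced from exons within chr19:47083471-47090647 on the minus strand. Both are RefSeq coding sequences on GRCm38.p6, 5′ to 3′, with the start and stop codons in capitals.
Atp5e: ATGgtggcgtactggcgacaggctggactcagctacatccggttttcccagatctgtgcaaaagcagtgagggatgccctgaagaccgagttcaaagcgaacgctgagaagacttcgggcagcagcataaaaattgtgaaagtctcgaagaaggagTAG
Atp5md: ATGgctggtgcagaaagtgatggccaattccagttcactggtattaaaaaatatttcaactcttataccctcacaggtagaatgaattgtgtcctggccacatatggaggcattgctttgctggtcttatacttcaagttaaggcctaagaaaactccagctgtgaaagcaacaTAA

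Nuclear-encoded oxidative phosphorylation RNAs were less represented in the p-UPF1 libraries than in the IgG or input libraries. Together they took 0.973%, 0.985% and 0.972% of all counts in the input libraries, 0.804%, 0.792% and 0.780% in the IgG libraries and 0.172%, 0.180% and 0.176% in the p-UPF1 libraries, so that the 3 groups did not overlap. Counts in all 9 libraries were found for 89 of the 100 genes, and 87 passed the filter on low counts. These 87 were tested with edgeR (the quasi-likelihood test), and p-values were adjusted by Benjamini and Hochberg's method over all 13129 genes tested, after scaling by trimmed mean of M-values (TMM), and a gene was called at an adjusted p under 0.05. Of the 87 genes, 86 fell in p-UPF1 over IgG and 1, Ndufaf5, rose, at a background of 42.2% of all genes tested called lower and 40.4% called higher, and all 87 values were positive once libraries were instead scaled to carry the same summed level of the 13 mRNAs encoded in mitochondria (mt-mRNA scaling). The median log2 fold change of the 87 genes was -2.40, a level 5.26-fold lower, and the median over all genes tested was -0.03. The mt-mRNA scaling moved the median of all genes to 4.66 and that of the 87 to 2.29, which left 86 of the 87 below the median of all genes, as under TMM. With that scaling 85 members were called higher and 0 lower over IgG, at a background of 99.4% higher and 0.0305% lower. A decrease of at least 1 log2 unit was called for 80 of the 87, against 21.9% of all genes tested, and one of at least 2 log2 units for 57, against 6.51%. Without the IgG library A, the median over IgG was -2.39.

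Against input, 85 of the 87 genes fell and none rose, while 42.6% of all genes tested fell and 40.8% rose. The median was -3.04 for the 87 genes and -0.03 for all genes tested, and mt-mRNA scaling turned these to 1.995 and 5.005, with 85 members higher and 0 lower where 99.4% of all genes were higher and 0.0533% lower. No member lay above 0 in this comparison, and edgeR at an unadjusted p under 0.05, DESeq2 and limma-voom each gave 0 genes that rose, whereas 6 rose with the length trend removed, as given further on, and 1 without the low-count filter. The genes not called were Ndufaf5 at -0.23 ± 0.13 (log2 fold change ± SE) and Ndufs5-ps at -0.80 ± 0.49. Ndufaf5 was called lower over input without the IgG library A (-0.24), with only the 2 groups fitted (-0.21) and with the length trend removed (-0.43). Every p-UPF1 library lay below every IgG and every input library for 85 of the 87 genes, a pattern found for 37.6% of all genes tested, and the same 2 genes were the exceptions. The study's criterion of p-UPF1 binding, at least 1 log2 unit over IgG and at least 2 over input, was met by 6.25% of all genes tested and by 0 of the 87 members. That number was also 0 for edgeR at an unadjusted p under 0.05, for DESeq2 and for limma-voom, and with mt-mRNA scaling it was 43 members, where 96.9% of all genes tested met the criterion.

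The nonspecific antibody gave a smaller difference in the same direction under TMM scaling. In IgG over input, 78 of the 87 genes fell, 3 rose and 6 were not called, at a background of 34.7% lower and 18.2% higher. The median was -0.54 for the 87 genes and -0.10 for all genes tested. These counts depended on the setting. With the length trend removed 35 were lower and 13 higher, where 26.2% of all genes were lower and 22.7% higher. With mt-mRNA scaling 39 were lower and 9 higher, where 8.33% of all genes were lower and 46.6% higher. Ndufs5-ps, Ndufs1 and Ndufaf7 rose, by 1.57, 0.34 and 0.28 on the log2 scale. The comparisons over IgG and over input share the p-UPF1 libraries and are not independent of each other.

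**Figure D1:**
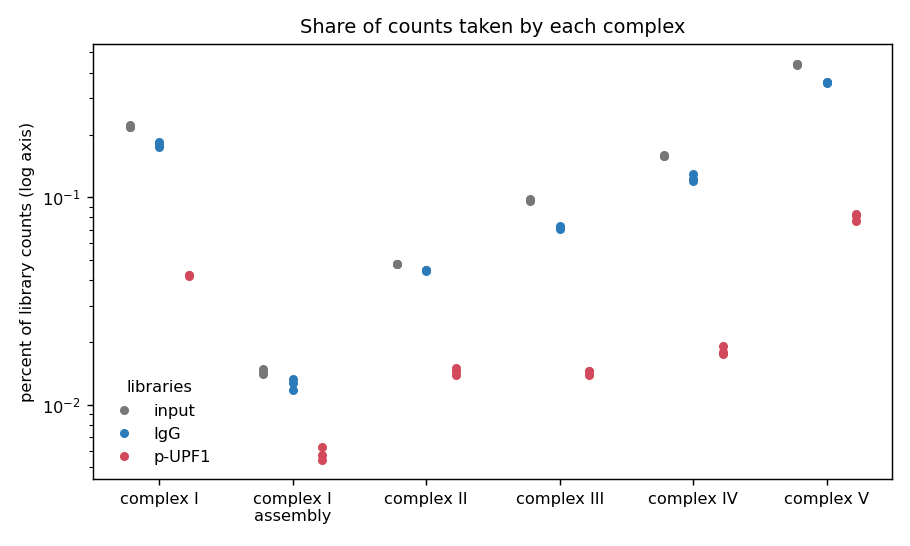
Percent of all counts in a library (log axis) taken by the genes of each respiratory complex and by the complex I assembly factors, with 1 point per library and 3 libraries per group. In every complex the p-UPF1 points lie below all IgG and input points, as in complex V, where they lie between 0.0774% and 0.0827% and the IgG points between 0.357% and 0.361%; shares are of library totals and take no scaling factor.

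Complex V held the largest share of counts, 0.436% to 0.441% in input and 0.0774% to 0.0827% in p-UPF1. All 17 of its genes fell over IgG under TMM (none under mt-mRNA scaling), at a median of -2.54, where 42.2% of all genes tested fell. Atp5a1 and Atp5b encode the alpha and beta subunits of the catalytic F1 head, and Atp5b is the most abundant member per kilobase in input (893 ± 11.0 CPM per kb, SD, n = 3). Atp5b stood at 1665, 1702 and 1669 CPM in the input libraries, 1329, 1371 and 1356 CPM in the IgG libraries and 287, 320 and 316 CPM in the p-UPF1 libraries. Atp5a1 stood at 1101, 1111 and 1104 CPM in the input libraries, 896, 933 and 937 CPM in the IgG libraries and 321, 346 and 344 CPM in the p-UPF1 libraries. The groups did not overlap for either gene, and both fell over IgG under TMM, to log2 fold changes of -2.14 and -1.45, while mt-mRNA scaling gave positive values. Adjusted p was 9.08e-17 for Atp5b and 2.82e-15 for Atp5a1 by edgeR's quasi-likelihood test. Per kilobase these subunits also led in p-UPF1, at 164 ± 9.64 CPM per kb for Atp5b and 139 ± 5.69 CPM per kb for Atp5a1.

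Within complex V the F1 genes had a median log2 fold change over IgG of -2.03 (5 genes) and the genes of the membrane Fo part and stalk one of -2.57 (12 genes). That order was not tested and turned once the length trend was removed, as described further on, to -1.60 and -1.11. Atp5md was the lowest of complex V under TMM (with the length trend removed, Atp5b was), at 52.6, 54.1 and 50 CPM in the input libraries, 35.5, 38.3 and 35.7 CPM in the IgG libraries and 2.49, 3.25 and 2.54 CPM in the p-UPF1 libraries. Its p-UPF1 libraries lay below all others, and its log2 fold change over IgG was -3.73 ± 0.10 (13.2-fold lower). Of the 50-base windows of its mRNA, 74.2% also occurred elsewhere in the genome, so reads may be shared with copies. Atp5e, whose reading frame is given above, stood at 115, 113 and 115 CPM in the input libraries, 52.1, 52.4 and 52.2 CPM in the IgG libraries and 4.63, 5.19 and 5.17 CPM in the p-UPF1 libraries, a log2 fold change of -3.39 ± 0.06. The Atp5g1, Atp5g2 and Atp5g3 genes encode the same mature c subunit of the membrane ring with different import sequences. Atp5g3 was the most abundant of them per kilobase (335 ± 9.99 CPM per kb in input), with 239 ± 7.14 CPM in input (SD, n = 3) and 39.4 ± 1.88 CPM in p-UPF1, Atp5g1 had 91.4 ± 3.13 CPM and 8.2 ± 0.396 CPM, and Atp5g2 had 81.3 ± 2.65 CPM and 5.78 ± 0.374 CPM. Their log2 fold changes over IgG were -2.28 ± 0.05, -2.68 ± 0.07 and -2.54 ± 0.10 in that order, and the differences among the 3 were not tested. Of their 50-base mRNA windows, 100% for Atp5g2, 86.1% for Atp5g1 and 0% for Atp5g3 occurred elsewhere in the genome, so the counts of the first 2 are uncertain and so is the order of the 3.

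**Figure D2:**
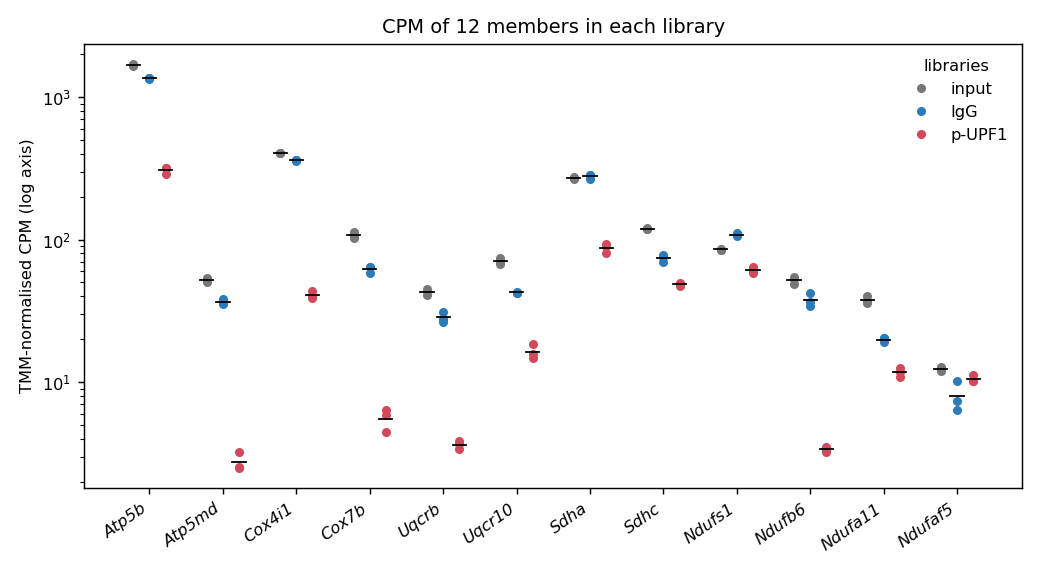
TMM-normalised CPM (log axis) of 12 members in each library, with 1 point per library and a bar at the mean of 3. The p-UPF1 points lie below all other points for 11 of the genes and between the input points and the IgG mean for Ndufaf5 alone; mt-mRNA scaling gave positive log2 fold changes over IgG for all 12.

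Complex IV, cytochrome c oxidase, was the structural complex with the lowest median, -2.93 over 13 tested genes, under TMM without a length correction (with it, complex III was lowest). All 13 fell over IgG under TMM (none under mt-mRNA scaling), where 42.2% of all genes tested fell. With the length trend removed 11 were lower and 2 not called. Cox4i1, the regulatory subunit that most cells use, stood at 403, 407 and 405 CPM in the input libraries, 362, 359 and 360 CPM in the IgG libraries and 40.3, 43.4 and 39.1 CPM in the p-UPF1 libraries. The p-UPF1 libraries were all below the other 6, and the log2 fold change over IgG was -3.14 ± 0.04. Its alternative isoform Cox4i2, which is known from lung and from low oxygen, had at most 7 counts in any library and was not tested.

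Cox5a and Cox6c are further subunits found in all tissues. Cox5a stood at 137, 135 and 135 CPM in the input libraries, 78.8, 78.8 and 69.5 CPM in the IgG libraries and 14.2, 14.4 and 14.6 CPM in the p-UPF1 libraries. Cox6c stood at 147, 150 and 146 CPM in the input libraries, 111, 97.8 and 109 CPM in the IgG libraries and 13.6, 13.9 and 14 CPM in the p-UPF1 libraries. Neither gene's groups overlapped, with log2 fold changes over IgG of -2.40 ± 0.06 and -2.94 ± 0.06. Cox7b, a small subunit needed for assembly of the complex, was the lowest of complex IV at a mean of at least 10 CPM. Its levels were 103, 114 and 106 CPM in the input libraries, 64.1, 64.1 and 58.6 CPM in the IgG libraries and 6.32, 5.82 and 4.44 CPM in the p-UPF1 libraries, a log2 fold change over IgG of -3.49 ± 0.09. At the other end, Cox7a2l, which helps join complexes III and IV into supercomplexes, stood at 146, 141 and 139 CPM in the input libraries, 118, 122 and 121 CPM in the IgG libraries and 53.2, 63.1 and 56.3 CPM in the p-UPF1 libraries. It was the nearest to 0 in this complex, with -1.06 ± 0.05 over IgG, and 59% of its 50-base mRNA windows occurred elsewhere in the genome. With the length trend removed, as given further on, it was at -0.13 over IgG (adjusted p = 0.0528 by edgeR) and -0.09 over input (adjusted p = 0.175 by edgeR), and neither was called.

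Isoforms that differ between tissues were compared next. Cox6a1, the common isoform, had 134 ± 1.2 CPM in input and 11.7 ± 0.861 CPM in p-UPF1 (SD, n = 3), and Cox6a2, known from heart and skeletal muscle, was also counted in these B cells. Cox6a2 stood at 35, 33.1 and 33.2 CPM in the input libraries, 14.2, 17.3 and 8.41 CPM in the IgG libraries and 2.61, 2.93 and 2.81 CPM in the p-UPF1 libraries. Its groups did not overlap, though its IgG libraries differed from one another by about as many CPM as those of Cox6a1 (SD 4.51 and 4.63 CPM) at a lower mean (13.3 and 91.9 CPM). In the main fit it had the lowest IgG over input value of the set (-1.34 ± 0.16). With the length trend removed it stood at -0.89, while the lowest member stood at -0.93. The exons of Cox6a2 overlap the gene Itgad on the opposite strand, which cannot be told apart where the counting did not use strand. The log2 fold changes of p-UPF1 over IgG were -2.98 ± 0.06 for Cox6a1 and -2.25 ± 0.21 for Cox6a2. Cox6b1 had 104 ± 1.29 CPM in input and a log2 fold change over IgG of -2.87, whereas its testis isoform Cox6b2 had 4.24 ± 0.434 CPM and -1.60. Cox8a had 145 ± 3.6 CPM and -2.78, while Cox8b and Cox8c had no count in any library. Ndufa4, once placed in complex I and now in complex IV, had 111 ± 5.23 CPM in input and -3.21 over IgG, while its relative Ndufa4l2 was below the filter on low counts. Ndufa4l2 had 4, 3 and 1 counts in the input libraries, 1, 1 and 12 in the IgG libraries and 14, 8 and 7 in the p-UPF1 libraries. It was tested in 8 alternative settings. It was called higher over input in 3 of them (log2 fold change 1.86 without the filter, 1.72 without the IgG library A and 1.74 without the IgG library B) and not in the 5 that left out a p-UPF1 or input library, where edgeR's adjusted p ran from 0.0626 to 0.164. Cox7a1 had 2 to 14 counts per library and Cox7a2 had 0 to 3, and neither was tested.

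Complex I, NADH dehydrogenase, is the largest complex. All 36 of its tested genes fell over IgG under TMM (none under mt-mRNA scaling), at a median of -2.42, where 42.2% of all genes tested fell. With the length trend removed 34 were lower, 1 higher and 1 not called. The 7 core genes, which carry the flavin and iron-sulfur clusters or line the electron path, had a median of -1.95, and the 29 accessory genes one of -2.51. This difference was not tested, and with the length trend removed the medians were -1.10 and -1.18. Ndufs1, the largest core subunit, stood at 86.2, 85 and 84.7 CPM in the input libraries, 105, 112 and 107 CPM in the IgG libraries and 58.3, 59.7 and 64.2 CPM in the p-UPF1 libraries. The IgG libraries were the highest here and the p-UPF1 libraries the lowest, and Ndufs1 was the core gene nearest to 0 without a length correction, at -0.83 ± 0.05 over IgG and -0.49 ± 0.05 over input. Ndufv1, which binds NADH, stood at 109, 107 and 106 CPM in the input libraries, 95.5, 100 and 93.6 CPM in the IgG libraries and 35.5, 35.8 and 36 CPM in the p-UPF1 libraries. Its p-UPF1 libraries lay below all others, with -1.43 ± 0.05 over IgG. Among the accessory genes, Ndufb6 was the lowest at a mean of at least 10 CPM, with 52.8, 54.6 and 48.8 CPM in the input libraries, 42.1, 34.1 and 36.2 CPM in the IgG libraries and 3.37, 3.52 and 3.22 CPM in the p-UPF1 libraries. Its log2 fold change over IgG was -3.47 ± 0.10. Ndufa11 was the nearest to 0 without a length correction, with 36.9, 39.9 and 35.8 CPM in the input libraries, 19, 20.4 and 20.3 CPM in the IgG libraries and 10.8, 11.8 and 12.6 CPM in the p-UPF1 libraries. Its 3 groups were stepwise apart, with -0.76 in p-UPF1 over IgG and -0.92 in IgG over input.

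The 8 complex I assembly factors, which help build the complex without staying in it, lay closer to the other genes of the cell, at a median of -1.01 over IgG with 7 lower and 1 higher under TMM (42.2% and 40.4% of all genes tested) and none lower under mt-mRNA scaling. Ndufaf2 stood at 16.9, 21.5 and 18.1 CPM in the input libraries, 13.6, 14.3 and 12.2 CPM in the IgG libraries and 3.83, 3.21 and 3.26 CPM in the p-UPF1 libraries. It fell, at -1.95 ± 0.13. Ndufaf5, an enzyme that modifies the core subunit Ndufs7, stood at 12.8, 12.2 and 11.9 CPM in the input libraries, 10.1, 6.33 and 7.34 CPM in the IgG libraries and 11.1, 10.2 and 10.1 CPM in the p-UPF1 libraries. The p-UPF1 libraries lay below all input libraries and above 2 of the 3 IgG libraries, with the third IgG library within their range, and the log2 fold change was 0.41 ± 0.14 over IgG with an adjusted p of 0.0131 by edgeR's quasi-likelihood test. This call was lost with upper-quartile scaling (0.27), with scaling by library size only (0.24), with the length trend removed (0.12), without the IgG library B (0.28) and at an adjusted p threshold of 0.01. Without the IgG library A the value was larger, 0.62, and was called. Over all assembly factors, 4 of 8 decreased by at least 1 log2 unit, compared with 73 of the 76 structural subunits tested and 21.9% of all genes tested, and the difference between assembly factors and subunits was not itself tested. The structural subunits of all complexes were called lower in 76 of 76 cases over IgG (42.2% of all genes tested), at a median of -2.51, and in 76 of 76 over input (42.6%), at -3.17, with both signs turned by mt-mRNA scaling.

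**Figure D3:**
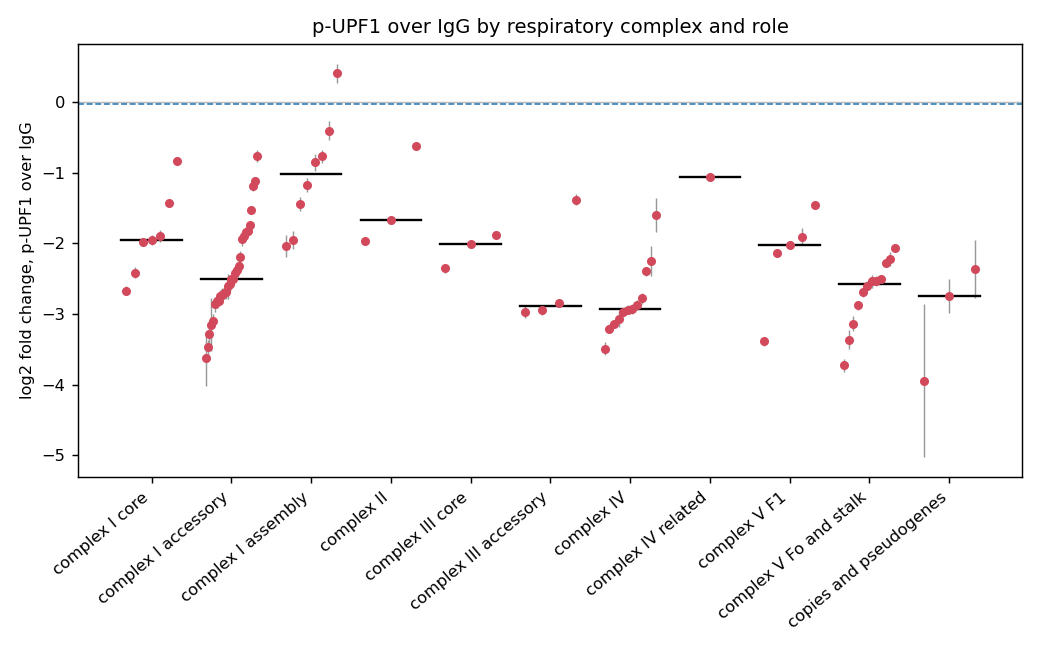
Log2 fold change of p-UPF1 over IgG for the 87 tested members, by complex and role, with the SE as bars, a black line at each group's median and the median of all genes tested (-0.03) as the dashed line. Of the 87 points, 86 lie below 0 and Ndufaf5 above it; with mt-mRNA scaling all 87 would lie above 0 and the dashed line at 4.66.

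Complex II, succinate dehydrogenase, also part of the citric acid cycle, had 3 tested genes. All fell over IgG under TMM (none under mt-mRNA scaling), at a median of -1.67, where 42.2% of all genes tested fell. Sdha, the flavoprotein, stood at 266, 273 and 272 CPM in the input libraries, 266, 286 and 284 CPM in the IgG libraries and 80.3, 92.4 and 89.7 CPM in the p-UPF1 libraries. Input and IgG overlapped for Sdha (0.04 ± 0.05 in IgG over input, adjusted p = 0.485 by edgeR), and only p-UPF1 was apart, at -1.67 ± 0.05 over IgG. Sdhb, the iron-sulfur subunit, stood at 95.6, 97.3 and 93.6 CPM in the input libraries, 61.8, 68.2 and 64.3 CPM in the IgG libraries and 16.7, 16.5 and 16.5 CPM in the p-UPF1 libraries. Its log2 fold change over IgG was -1.97 ± 0.06. Sdhc, a membrane anchor, stood at 119, 119 and 120 CPM in the input libraries, 78.3, 69.6 and 75.7 CPM in the IgG libraries and 48.7, 49.2 and 47.4 CPM in the p-UPF1 libraries. Its groups did not overlap, but at -0.62 ± 0.05 over IgG it was the structural subunit nearest to 0. With the length trend removed it was called higher over IgG, at 0.17 (adjusted p = 0.00333 by edgeR). Sdhd, the other anchor, had at most 2 counts in any library and was not tested.

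All 7 tested genes of complex III, the cytochrome bc1 complex, fell over IgG under TMM (none under mt-mRNA scaling). Their median was -2.35, and 42.2% of all genes tested fell. Uqcrc1 and Uqcrfs1 encode a core protein and the Rieske iron-sulfur protein. Uqcrc1 stood at 220, 221 and 225 CPM in the input libraries, 173, 174 and 172 CPM in the IgG libraries and 46.4, 45.8 and 48 CPM in the p-UPF1 libraries. Uqcrfs1 stood at 136, 143 and 139 CPM in the input libraries, 83.4, 95.3 and 84.5 CPM in the IgG libraries and 16.5, 18.2 and 16.9 CPM in the p-UPF1 libraries. Neither overlapped between groups, and the log2 fold changes over IgG were -1.89 ± 0.04 and -2.35 ± 0.06. The small subunits Uqcrb and Uqcr10 were the ends of the complex under TMM. With the length trend removed Uqcr10 was called higher over IgG (0.38) and over input (0.29), and Uqcrq (-2.55), not Uqcrb (-1.32), was the lowest over IgG. Uqcrb stood at 44.6, 43.4 and 40.6 CPM in the input libraries, 31, 26.5 and 27.8 CPM in the IgG libraries and 3.83, 3.66 and 3.4 CPM in the p-UPF1 libraries. Uqcr10 stood at 69.1, 73.9 and 67.6 CPM in the input libraries, 43.1, 42.3 and 42.2 CPM in the IgG libraries and 18.4, 15.8 and 14.8 CPM in the p-UPF1 libraries. The log2 fold changes over IgG were -2.97 ± 0.10 for Uqcrb and -1.38 ± 0.07 for Uqcr10, and 51.0% of the exon bases of Uqcr10 overlap the gene Gm51883 on the opposite strand. Uqcr11 had no count in any library. For Sdhd, Cox7a2 and Uqcr11, which are common subunits, the cause of the near absence of counts was not tested.

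Among the copies and pseudogenes, 3 of 7 were tested. All 3 fell over IgG under TMM (none under mt-mRNA scaling), where 42.2% of all genes tested fell. With the length trend removed 1 was lower and 2 were not called. Ndufs5-ps, a processed copy of Ndufs5, stood at 0.527, 0.353 and 0.255 CPM in the input libraries, 1.28, 1.07 and 1.13 CPM in the IgG libraries and 0.295, 0.181 and 0.181 CPM in the p-UPF1 libraries. It was highest in IgG, at 1.57 ± 0.38 over input, and its input and p-UPF1 libraries overlapped. Reads of near-identical copies may be split or lost in counting. The median log2 fold change over IgG was -1.95 for the 41 tested genes with no 50-base window elsewhere in the genome, -2.61 for the 33 with up to 50% of windows elsewhere and -2.87 for the 13 with more. Transcript length was not held equal among these sets, and the part of copies was not tested.

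Transcript length varied with the log2 fold change. The members' median transcript length was 687 bases and that of all genes tested 2842 bases. Across the 87 members, log2 length and log2 fold change over IgG had a Pearson r of 0.64, and across the 12840 tested genes with a length it was 0.36, as a description over genes of the same libraries. In transcripts of up to 600 bases the median over IgG was -1.84 for all genes and -2.85 for the 32 members. From 600 to 1000 bases it was -1.62 and -2.39 (26 members), from 1000 to 1500 bases -0.69 and -1.82 (13 members), from 1500 to 2000 bases -0.28 and -1.99 (9 members) and from 2000 to 3000 bases 0.18 and -1.14 (6 members). In each of these length classes the members' median was the lower one. When a smooth trend on length was removed from every library, the members' median over IgG went to -1.17 and that of all genes to -0.05, with 77 members lower, 4 higher and 6 not called (Cox7a2l, Cox6b2, Ndufa13, Ndufaf5 and the copies Ndufs5-ps and Uqcrh-ps1), at a background of 42.4% lower and 38.8% higher. The 4 that then rose were Ndufaf6 at 0.52, Ndufab1 at 0.39, Uqcr10 at 0.38 and Sdhc at 0.17. Over input the median went to -1.27, with 79 members lower and 6 higher (Ndufs5-ps, Cox6b2, Ndufab1, Ndufaf6, Ndufa13 and Uqcr10), and Cox7a2l and Ndufaf8 not called, at a background of 42.0% lower and 40.3% higher. In IgG over input it went to -0.09, against -0.02 for all genes, with 35 members lower and 13 higher at a background of 26.2% lower and 22.7% higher. By complex, the length-corrected medians over IgG were -1.13 for complex I, -0.39 for its assembly factors, -1.03 for complex II, -1.61 for complex III, -1.25 for complex IV and -1.27 for complex V, so that complex III and not complex IV had the lowest. The part of length in the result was not tested further.

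**Figure D4:**
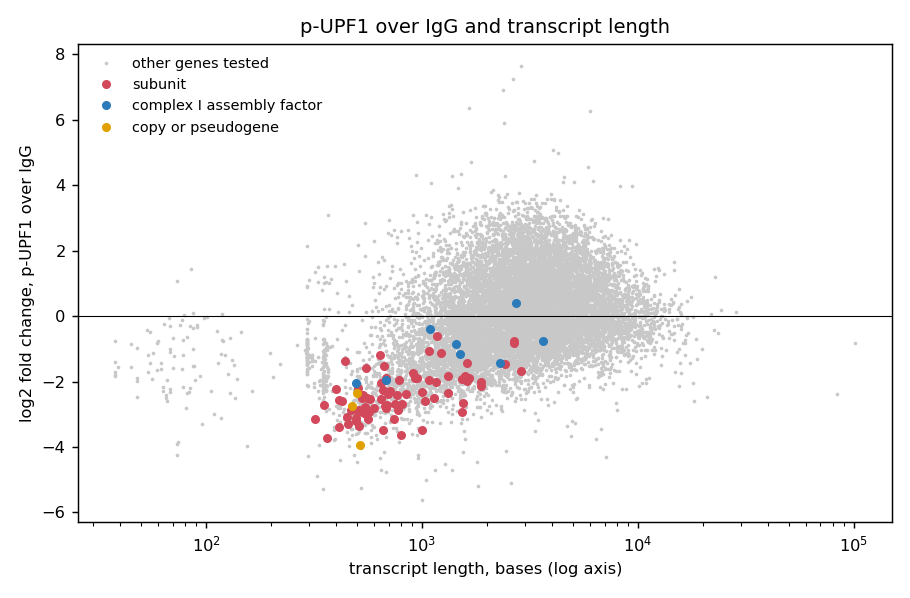
Log2 fold change of p-UPF1 over IgG against transcript length (log axis) for 12840 genes tested, with members coloured by kind. Members lie mostly at the short end (median 687 bases) and below 0 under TMM scaling, while mt-mRNA scaling would lift the median of all genes to 4.66.

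**Figure D5:**
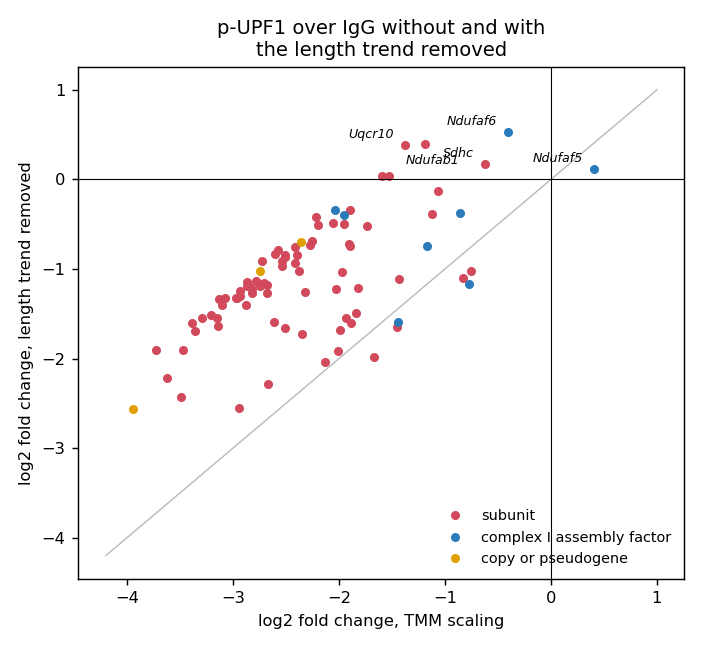
Log2 fold change of p-UPF1 over IgG of the 87 members with TMM scaling (x axis) and with the length trend removed as well (y axis), with the diagonal as a grey line. Most points lie above the diagonal, the median moving from -2.40 to -1.17, and the named points lie above 0 on the y axis; mt-mRNA scaling would turn the x values positive.

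Other groups of RNAs that make or feed mitochondria were set beside these genes. Transcripts of cytosolic ribosomal proteins, which are also short, had a median of -2.86 over IgG, with all 80 tested lower. Mitochondrial ribosomal protein mRNAs had a median of -1.39, with 65 of 77 lower and 10 higher, where all genes tested had 42.2% lower and 40.4% higher. The 12 tested mRNAs encoded in the mitochondrial genome, which are not exported to the cytosol, all fell, at a median of -4.71. All of these directions refer to TMM scaling, and mt-mRNA scaling moves every one of them up by the shift of all genes given above.

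The 250 bases upstream of the members' start sites were searched on both strands for 3 runs of letters. These were GCATGCGC (an NRF1 site, a factor known to drive many of these genes), CCGGAAG (an ETS site) and AAGATGGCG (a YY1 site). RefSeq promoters on GRCm38.p6 matched 77 member genes with 82 promoters. The NRF1 letters were in 11.0% of member promoters and 2.26% of all 32851 promoters, the ETS letters in 17.1% and 6.91%, and the YY1 letters in 1.22% and 0.606%. Any of the 3 was in 25.6% and 9.31%, and in 21 of the 77 member genes. The 32851 promoters were not limited to genes tested here. The next lines show Atp5l and Cox6a1, chosen after the search because both hold NRF1 and ETS letters, and Ndufaf5. Ndufaf5 was called higher over IgG under TMM, a call lost in several other settings given above. It holds no match in this window, like the member genes outside those 21. The windows lie at chr9:44920743-44920992 (minus strand), chr5:115348959-115349208 (minus strand) and chr2:140170396-140170645 (plus strand), 5′ to 3′ toward the start site, with matches in capitals. Overlapping matches in Cox6a1 form 1 run.
Atp5l: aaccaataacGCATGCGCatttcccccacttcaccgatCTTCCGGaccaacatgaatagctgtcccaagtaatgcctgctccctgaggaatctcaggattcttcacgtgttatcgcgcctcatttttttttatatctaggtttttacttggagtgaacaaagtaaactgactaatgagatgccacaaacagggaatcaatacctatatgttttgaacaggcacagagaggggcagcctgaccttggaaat
Cox6a1: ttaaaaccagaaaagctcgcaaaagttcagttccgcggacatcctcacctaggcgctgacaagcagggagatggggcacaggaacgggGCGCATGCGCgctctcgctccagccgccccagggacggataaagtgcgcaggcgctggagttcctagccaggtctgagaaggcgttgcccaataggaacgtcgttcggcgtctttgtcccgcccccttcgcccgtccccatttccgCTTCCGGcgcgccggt
Ndufaf5: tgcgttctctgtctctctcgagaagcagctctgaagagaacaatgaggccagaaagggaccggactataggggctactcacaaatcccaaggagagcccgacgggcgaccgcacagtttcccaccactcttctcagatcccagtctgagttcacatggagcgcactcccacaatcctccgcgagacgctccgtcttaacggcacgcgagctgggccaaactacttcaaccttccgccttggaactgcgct
The log2 fold changes over IgG of Atp5l, Cox6a1 and Ndufaf5 were -3.36 ± 0.14, -2.98 ± 0.06 and 0.41 ± 0.14. A match of letters is a description of the window, not a site shown to be bound. Any link between these letters and recovery with p-UPF1 was not tested.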

How the data were processed

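RNA from p-UPF1 and IgG immunoprecipitates and from input of activated splenic B cells was sequenced, 3 libraries each. Raw read counts per NCBI Gene ID were deposited by the authors in 1 table. The submitters' processing notes name cutadapt, HISAT2, featureCounts and the mm10 build, and the annotation version is not given in the sources used here. The methods name unstranded HISAT2 mapping and featureCounts for RNA-seq of other cells, but state no strand setting for these libraries, which were made with a directional kit. Columns were matched to groups by name. There were 0 columns of other samples.

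The whole table was filtered with filterByExpr (minimum count 10, minimum total 15), scaled by TMM and fitted over all 9 libraries with edgeR 4.0.16 in R 4.3.3, by the quasi-likelihood test with 6 residual degrees of freedom. Benjamini-Hochberg adjustment ran over the 13129 genes tested, at a threshold of 0.05. Log2 fold changes used a prior count of 0.125. CPM are TMM-normalised. Values by library are given for genes fixed by role, for the highest and the lowest tested gene of each complex at a mean of at least 10 CPM, for genes meeting the binding criterion and for those with the largest IgG over input value in each direction; isoforms were fixed too, and Atp5e, Atp5l, Ndufa13, Ndufab1, Ndufaf6, Ndufaf7, Ndufaf8, Uqcrq and Uqcrh-ps1 were named after their values were seen. The values of 1 gene fixed by role are not reported here. Alternatives were other scalings, filters, prior counts and thresholds, DESeq2 1.42.0, limma 3.58.1 with voom, 2 groups fitted, a length trend removed, each library left out and, added after seeing the data, a block on the column letter. Copies were searched with 50-base windows, and lengths are of RefSeq transcripts, matched for 99 of the 100 genes. Counting intervals do not cover PCR duplicates. The members and lists were chosen with earlier results of these data known.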

Additional observations from a re-analysis of the deposited data

How the results depend on the processing

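Values here are log2 fold changes, or counts of the members tested in each setting, 87 unless the filter or the libraries changed. Scaling to equal mitochondrially encoded mRNA turned the medians to 2.29 over IgG and 1.995 over input and gave -0.19 in IgG over input, with 85 genes higher and 0 lower over IgG, 85 higher and 0 lower over input, 9 higher and 39 lower in IgG over input, and 43 p-UPF1-bound. With this scaling 99.4% of all genes tested were higher over IgG and 99.4% over input, and 96.9% met the binding criterion. In IgG over input this scaling called 46.6% of all genes tested higher and 8.33% lower. Under it the named genes had, over IgG and over input in turn, Atp5a1 3.24 and 3.33, Atp5b 2.56 and 2.59, Atp5md 0.96 and 0.79, Cox4i1 1.55 and 1.73, Cox5a 2.30 and 1.80, Cox6a2 2.44 and 1.44, Cox6c 1.75 and 1.62, Cox7a2l 3.63 and 3.74, Cox7b 1.20 and 0.76, Ndufa11 3.93 and 3.36, Ndufaf2 2.73 and 2.58, Ndufb6 1.22 and 1.09, Ndufs1 3.86 and 4.55, Ndufs5-ps 2.29 and 4.19, Ndufv1 3.26 and 3.45, Sdha 3.02 and 3.41, Sdhb 2.72 and 2.51, Sdhc 4.07 and 3.74, Uqcr10 3.31 and 2.93, Uqcrb 1.72 and 1.47, Uqcrc1 2.81 and 2.79, Uqcrfs1 2.34 and 2.02, and Ndufaf5 over IgG kept its sign (5.10) and turned to 4.80 over input. The scaling rests on 13 mRNAs that themselves differ between the groups, and the cause was not tested. With the length trend removed, the medians were -1.17 over IgG, -1.27 over input and -0.0879 for the IgG libraries over input, with 4, 6 and 13 genes higher and 35 lower in the last, and Ndufs5-ps over input (1.44), Sdhc over IgG (0.17) and Uqcr10 over IgG (0.38) and over input (0.29) reversed. The shares of all genes tested were then 38.8%, 40.3% and 22.7% higher in that order, and 26.2% lower in the last.

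The number of genes higher over IgG, 1 in the report, was 0 after upper-quartile or plain library-size scaling, at an adjusted p under 0.01 and without the IgG library B, and the number higher over input, 0 in the report, was 1 without the low-count filter. Median shifts were small. Over IgG the median was -2.38 with RLE factors and with DESeq2, -2.53 after upper-quartile and -2.56 after plain library-size scaling, -2.48 with TMM on an input reference, -2.39 on an IgG reference, -2.35 without a filter, -2.37 at a minimum of 1 CPM and -2.35 with a prior count of 2. Over input it was -2.996 with RLE factors, -2.997 with DESeq2, -3.11, -3.09, -3.02 and -2.92 with the same 4 scalings in that order, -2.91 without a filter, -3.01 at 1 CPM, -3.004 with a prior count of 2 and -3.01 with only the 2 groups fitted. In IgG over input it was -0.47, -0.42, -0.43 and -0.43 with those scalings, -0.45 without a filter and -0.43 with the 2 groups fitted. Leaving out 1 library at a time gave -2.44 to -2.36 over IgG, -3.07 to -3.01 over input, -0.56 to -0.53 in IgG over input, 0 to 1 gene higher over IgG and 0 to 1 higher over input, the latter being Ndufa4l2, called without the IgG library A or B and without a filter but in none of the 5 other settings that tested it. Causes of these shifts were not tested.

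The columns name libraries by letter and the labels by number, so the planned replicate block on the label numbers could not be fitted. A replicate block on the column letter, added after seeing the data, left the counts at 86 lower and 1 higher over IgG, 85 and 0 over input and 78 and 3 in IgG over input, with medians of -2.40, -3.04 and -0.54. Of all 13129 genes, the block called 5547 lower and 5328 higher over IgG. It called 5623 and 5379 over input, and 4644 and 2450 in IgG over input. Libraries of the same letter were correlated in their deviations from the group means at -0.00510 to 0.0542 over 13129 genes. Those of different letters were at -0.0560 to 0.0222. In each comparison of 2 groups the A pair and the B pair were the highest. The labels do not give the letters, so the main fit took no pairs, and whether letters mark pairs was not settled. The low-count filter left 13 of the 100 genes without a test, and for Sdhd, Cox7a2 and Uqcr11 the cause of the low counts was not tested. Beyond the values given, the part of transcript length, sequence copies and strand was not tested.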

Other observations

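Nuclear genes for oxidative phosphorylation outside the symbol rule were called in both directions, as were all genes tested. Of 48 listed assembly factors and electron carriers, 45 were tested, of which 18 rose and 23 fell in p-UPF1 over IgG under TMM scaling, at a median of -0.44, beside 40.4% higher and 42.2% lower of all genes tested. The p-UPF1-bound criterion was met by 3 of them (Uqcc1, Tmem186 and Tmem126b), where 6.25% of all genes tested met it. The share that rose and the share bound lay near those of all genes tested. Uqcc1, an assembly factor of complex III, had a log2 fold change of 3.26 over IgG. Tmem186 and Tmem126b, factors of complex I assembly, had 2.74 and 2.64. The copper chaperone Sco1 had 2.13 and the complex IV translation factor Taco1 2.12. Their values over input, 1.97 and 1.79, were below the minimum of 2, so neither met the criterion. Among those that fell were cytochrome c1 (Cyc1) at -1.64, Etfa at -2.19, Cox17 at -2.85 and Uqcc2 at -3.62.

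Of 15 listed regulators of oxidative phosphorylation genes, 4 rose, 9 fell and 2 were not called over IgG under TMM scaling, beside 40.4% higher and 42.2% lower of all genes tested. Nrf1 rose (2.03), as did Esrra (0.90), Tfam (0.85) and Ppargc1a (0.55), whereas Gabpb1 (-0.72), Yy1 (-0.71), Lrpprc (-1.21) and its partner Slirp (-3.23) fell. Scaling to mitochondrially encoded mRNA would move all of these up by the shift of all genes.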
